A study of Mus musculus with 6 samples.

Results

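The genes described here are 10 of the 24411 genes in the files, which code for proteins of secondary granules and of late neutrophil differentiation: Camp, Ltf, Ngp, Lcn2, Mmp8, S100a8, S100a9, Chil3, Wfdc21 and Padi4. They were matched by symbol and were chosen by their measured values in the Brd9 KO over control comparison, on whether they follow the spread between the Brd9 KO libraries or not. Their levels in that comparison are therefore a description, without p-values. The 10 were part of the fit across all genes, and how many of them it called is counted only to describe them. Bulk poly(A) RNA-seq was carried out on 3 Brd9 KO libraries (Mx1-Cre Brd9 fl/fl) and 3 control libraries (Brd9 fl/fl) from C57BL/6 mice, CD45.2+ in the labels, with 21151031 to 28500168 expected counts per library. BRD9 is a bromodomain subunit of the non-canonical BAF chromatin remodeling complex. Both groups received pIpC at 20 mg/kg for 3 doses, 4 weeks after birth by the series design, and were analysed 8 weeks later, while the study's text gives an older age than these times add up to. In the KO group pIpC induces Cre from the interferon-responsive Mx1 promoter, which acts in many cell types, and because control mice carried no Cre, an effect of Cre and the loss of Brd9 cannot be told apart. The labels give lineage-negative marrow and transplant recipients, the series design gives primary mice, and the study's text gives FACS-sorted Lin- marrow cells positive for c-Kit, taken from primary animals. The study names biological triplicates, but the labels do not tie libraries to animals, so the errors measure the spread between libraries.

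Neutrophils make their granules in sequence as they mature. Primary granule proteins such as myeloperoxidase are made in promyelocytes, secondary (specific) granule proteins such as lactoferrin and cathelicidin in myelocytes and metamyelocytes, and cytosolic S100 proteins build up towards the mature cell. C/EBPε is required for transcription of many secondary granule genes, and cells sorted for Kit after lineage depletion are expected to hold few late neutrophils.

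Brd9 itself was at 15.6, 13.5 and 21.03 CPM in Brd9 KO replicates 1, 2 and 3, against 45.9, 49.1 and 52.1 CPM in control replicates 1, 2 and 3 (CPM, counts scaled to library size with TMM factors). The groups did not overlap, with an exact two-sided permutation p of 0.1, the smallest that 3 against 3 libraries allow, and Brd9 KO replicate 3 kept the most Brd9 RNA of the KO libraries. The defining progenitor gene Kit was detected throughout, at 269, 266 and 178 CPM in Brd9 KO and 205, 228 and 229 CPM in control libraries. Kit was thus above every control library in KO replicates 1 and 2 and below every control library in KO replicate 3. All 10 genes passed the expression filter on either group alone, and the smallest count of any of them in a library was 61.

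Camp, Ngp and Ltf lie on the same chromosome and Padi4 is the gene that stood apart from the others, so their promoters are shown first. Camp has 4 exons at chr9:109847379-109849617 (minus strand, mm10), and Ngp has 4 exons at chr9:110419747-110423012 (plus strand). Ltf has 17 exons at chr9:111019271-111042767 (plus strand), and Padi4 has 16 exons at chr4:140745865-140774236 (minus strand). The windows run from 250 bases before to 50 bases after the RefSeq start (GRCm38.p6, the assembly of mm10), written 5′ to 3′ on the gene's strand, with capitals at matches to the C/EBP core TTNNGNAA or TGNNGNAA on either strand. They are chr9:109849407-109849706 for Camp, chr9:110419558-110419857 for Ngp, chr9:111019042-111019341 for Ltf and chr4:140774154-140774453 for Padi4.
Camp: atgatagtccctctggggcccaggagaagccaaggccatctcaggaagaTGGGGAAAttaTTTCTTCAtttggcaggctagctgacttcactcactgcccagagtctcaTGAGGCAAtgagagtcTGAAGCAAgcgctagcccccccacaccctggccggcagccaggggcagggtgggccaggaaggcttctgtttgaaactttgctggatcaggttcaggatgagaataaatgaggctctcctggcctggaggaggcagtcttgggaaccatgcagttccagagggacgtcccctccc
Ngp: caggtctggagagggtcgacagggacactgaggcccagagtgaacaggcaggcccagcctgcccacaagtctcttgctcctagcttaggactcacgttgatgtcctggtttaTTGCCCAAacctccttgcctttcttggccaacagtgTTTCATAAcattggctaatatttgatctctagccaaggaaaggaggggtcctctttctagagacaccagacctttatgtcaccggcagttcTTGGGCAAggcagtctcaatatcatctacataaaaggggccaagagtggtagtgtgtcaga
Ltf: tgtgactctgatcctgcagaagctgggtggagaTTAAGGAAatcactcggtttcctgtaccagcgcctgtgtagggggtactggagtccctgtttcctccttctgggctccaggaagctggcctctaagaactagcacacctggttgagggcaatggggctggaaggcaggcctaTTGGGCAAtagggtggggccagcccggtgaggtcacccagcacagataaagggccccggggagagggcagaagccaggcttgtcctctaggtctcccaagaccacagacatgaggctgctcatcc
Padi4: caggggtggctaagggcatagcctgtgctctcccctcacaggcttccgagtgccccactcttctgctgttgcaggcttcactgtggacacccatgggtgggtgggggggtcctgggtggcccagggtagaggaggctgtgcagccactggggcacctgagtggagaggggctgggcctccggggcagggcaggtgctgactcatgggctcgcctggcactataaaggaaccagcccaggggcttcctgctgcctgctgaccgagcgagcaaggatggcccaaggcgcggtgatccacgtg
Camp held 4 matches, Ngp 3 and Ltf 2, while the window of Padi4 held 0. A window was found for 9 of the 10 genes, Wfdc21 having no entry, and 8 of these 9 held a C/EBP match, against 66.3% of all 32851 promoter windows of the same length. The letters TATAAA stood on either strand in 5 of the 9 windows and in 13.6% of all windows. GAGGAA, the PU.1 core, stood on either strand in 4 of the 9 and in 28.3% of all. TGTGGT or TGCGGT, the RUNX core, stood on either strand in 3 of the 9 and in 22.4% of all. Such a match describes letters only, and binding was not measured in these libraries.

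The secondary granule genes showed 2 patterns. In Brd9 KO replicate 3 Ltf, Ngp, Lcn2 and Mmp8 stood above every control library and in the other KO libraries below every control library, whereas Camp stood below every control library in all 3. In bulk RNA, fewer cells of a type and less RNA per cell cannot be told apart.
Camp, the cathelicidin precursor of an antimicrobial peptide, was at 3.97, 2.76 and 38.0 CPM in Brd9 KO replicates 1, 2 and 3, against 244, 107 and 167 CPM in control replicates 1, 2 and 3. These rest on 97, 76 and 788 counts in Brd9 KO and 6443, 2543 and 4550 counts in control libraries. Camp was therefore the gene with the greatest distance between the groups among the 10, at 0.0863 times the control mean CPM over all KO libraries and 0.0195 times in KO replicates 1 and 2, with a log2 fold change of -3.56 ± 0.93 (edgeR estimate ± SE, n = 3 each).
Ltf, the iron-binding lactoferrin, was at 76.7, 64.5 and 626 CPM in the Brd9 KO libraries, against 262, 138 and 201 CPM in the controls. Ngp, the cathelin-related neutrophilic granule protein, was at 117, 133 and 1170 CPM in the Brd9 KO libraries, against 522, 259 and 369 CPM in the controls. In both genes the KO replicates fell on either side of the control range, and the fold changes over all libraries were small beside their errors (log2 0.35 ± 0.80 for Ltf and 0.30 ± 0.82 for Ngp).
Lcn2 (6 exons, chr2:32384633-32388252, minus strand), the siderophore-binding lipocalin-2, was at 54.6, 50.1 and 355 CPM in the Brd9 KO libraries, against 159, 88.8 and 104 CPM in the controls. Mmp8 (10 exons, chr9:7558456-7568485, plus strand), the neutrophil collagenase, was at 9.21, 9.02 and 40.3 CPM in the Brd9 KO libraries, against 25.4, 17.3 and 27.5 CPM in the controls. Both again overlapped the controls through replicate 3 alone, with log2 fold changes of 0.39 ± 0.71 for Lcn2 and -0.27 ± 0.55 for Mmp8.

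S100a8 and S100a9 had the highest TPM of the 10 genes in every library, up to 12639 and 12194 TPM in Brd9 KO replicate 3. S100a8 (3 exons, chr3:90668978-90670035, plus strand) was at 412, 477 and 2036 CPM in the Brd9 KO libraries, against 812, 486 and 491 CPM in the controls. S100a9 (3 exons, chr3:90692632-90695721, minus strand), whose product pairs with that of S100a8 to form calprotectin, was at 462, 560 and 3293 CPM in the Brd9 KO libraries, against 1041, 557 and 678 CPM in the controls. For S100a9, KO replicate 2 lay just above control replicate 2, whereas for S100a8 KO replicates 1 and 2 were both below every control library.
The log2 fold changes were 0.71 ± 0.58 for S100a8 and 0.92 ± 0.70 for S100a9. On the TPM scale (which corrects for library size and transcript length) the S100a8 to S100a9 ratio was 1.501, 1.44 and 1.04 in the Brd9 KO libraries and 1.30, 1.47 and 1.22 in the controls. S100a8 was thus the more abundant of the pair per length in every library, and the ratio was lowest in KO replicate 3. The 2 genes lie 22.6 kb apart on chromosome 3.
Chil3 (11 exons, chr3:106147554-106167564, minus strand), the chitinase-like protein Ym1, was at 75.1, 98.0 and 732 CPM in the Brd9 KO libraries, against 137, 136 and 127 CPM in the controls, a log2 fold change of 1.18 ± 0.77. The control libraries were closest together for this gene among the 10, with a coefficient of variation of 4.37%, while that of the KO libraries was 124%. Chil3 has close paralogs between which reads can be split, but its close paralog Chil4 had 0 counts in every library.

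Wfdc21 (3 exons, chr11:83746940-83752642, plus strand), a small secreted protein with a WAP domain, was at 2.50, 3.02 and 7.76 CPM in the Brd9 KO libraries, against 37.4, 32.3 and 26.1 CPM in the controls. Like Camp, it stayed below every control library in all 3 KO libraries, with a log2 fold change of -2.87 ± 0.40.
Padi4, the peptidylarginine deiminase that citrullinates histones during release of neutrophil extracellular traps, was at 37.1, 43.3 and 57.2 CPM in the Brd9 KO libraries, against 18.1, 21.04 and 20.7 CPM in the controls. It was the only gene of the 10 that lay above every control library in all 3 KO libraries, at 2.30 times the control mean (log2 1.20 ± 0.17). Counted over the 10 genes, 1 was called higher (Padi4), 2 lower (Camp and Wfdc21) and 7 in neither direction at an adjusted p under 0.1 by edgeR's quasi-likelihood test. Of all 12953 genes tested, 15.4% were called, 9.19% higher and 6.25% lower. The groups did not overlap for 3 of the 10 genes, beside 33.5% of all genes. Since the 10 were chosen with this comparison known, these counts are no test of the 10 and nothing is read from them.

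**Figure D1:**
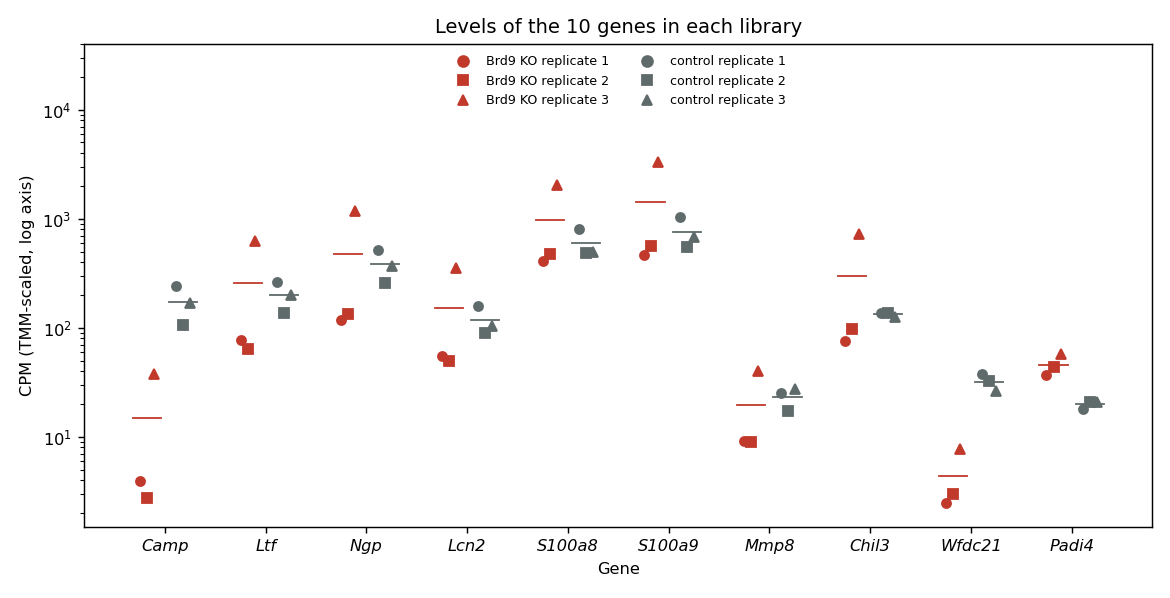
CPM (TMM-scaled, log axis) of the 10 genes in 3 Brd9 KO libraries (red, left of each pair) and 3 control libraries (grey); points are libraries, shaped by replicate number, and lines are group means. The Brd9 KO replicate 3 triangle lies above every control point except in Camp and Wfdc21, where all KO points lie below the control points.

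To describe which genes follow the spread between KO libraries, a gene was said to follow it where log2(CPM + 0.5) in Brd9 KO replicate 3 exceeded the higher of the other KO replicates by more than 1 and by more than the range of the controls. By this rule 9 of the 10 genes followed the spread, all but Padi4, beside 0.950% (123) of all genes tested. Since the 10 were chosen on this same spread, the count is a description and no test of the 10. The excess of replicate 3 was 3.13 for Ngp, 3.11 for Camp, 3.02 for Ltf, 2.90 for Chil3, 2.69 for Lcn2, 2.56 for S100a9, 2.09 for S100a8 and 2.07 for Mmp8 on the log2 scale. The lowest of the 9 was Wfdc21 at 1.23, and Padi4, the gene outside the rule, stood well below the threshold at 0.40. Wfdc21 was also the gene whose place depended on the scale, since on log2(TPM + 1) and log2(TPM + 0.1) 8 genes followed the spread and Wfdc21 was not among them.
Against the mean of KO replicates 1 and 2, replicate 3 was 11.3-fold higher in Camp, 9.33-fold in Ngp, 8.87-fold in Ltf and 8.46-fold in Chil3. It was 4.42-fold higher in Mmp8 and 4.58-fold in S100a8, the least among the 8 genes that followed the spread on every scale, 2.82-fold in Wfdc21 and 1.42-fold in Padi4. All 10 genes were highest in replicate 3 among the KO libraries, and KO replicates 1 and 2 differed by at most 1.44-fold in any of them. The control libraries also had an order, since 8 of the 10 genes were highest in control replicate 1 and 7 were lowest in control replicate 2, with a largest range of 2.27-fold in Camp. The share of all genes with these orders is not given here, and nothing is read from the counts.

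**Figure D2:**
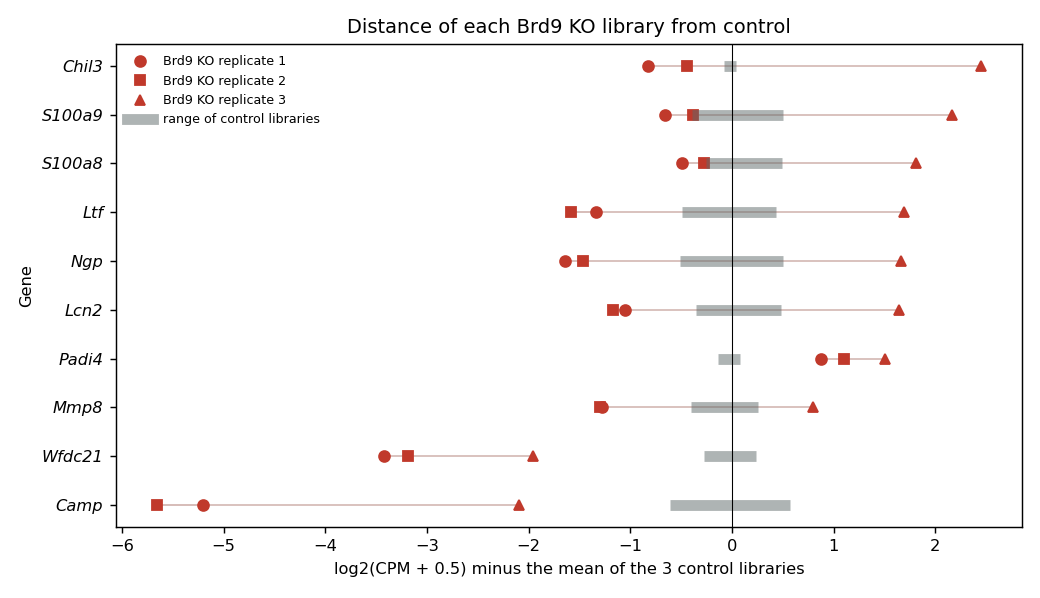
Distance of each Brd9 KO library (red, shaped by replicate) from the mean of the 3 control libraries on the log2(CPM + 0.5) scale, with grey bars for the range of the controls, genes ordered by replicate 3. Replicate 3 stands at 2.45 in Chil3 and at -2.09 in Camp, and Padi4 is the only gene with all 3 libraries above the grey bar.

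Camp shared the rise in replicate 3 but not its height. Set against the mean control on the log2 scale, Camp was at -5.20, -5.65 and -2.09 in Brd9 KO replicates 1, 2 and 3, and Ngp at -1.64, -1.46 and 1.67. The step up to replicate 3 was thus of like size in both genes, while Camp stood lower by a near constant amount.
A ratio of 2 genes within a library takes out what raises or lowers both. On the TPM scale, Camp had 0.0817, 0.0503 and 0.0782 times the level of Ngp in Brd9 KO replicates 1, 2 and 3, against 1.12, 1.002 and 1.10 times in control replicates 1, 2 and 3. The means were 0.0701 ± 0.0172 in Brd9 KO and 1.07 ± 0.0625 in control (SD, n = 3 each), a ratio 15.3 times higher in control. Within KO the ratio ranged 1.63-fold, while Camp itself was at 14.74, 11.25 and 114.13 TPM in replicates 1, 2 and 3. With Ltf as the other gene, Camp was at 0.332, 0.276 and 0.387 in the Brd9 KO libraries, against 5.89, 4.997 and 5.32 in the controls.
For the other secondary granule genes the ratio to Ngp overlapped between the groups. Ltf was at 0.246, 0.182 and 0.202 of Ngp in the Brd9 KO libraries, against 0.190, 0.201 and 0.206 in the controls. Lcn2 was at 0.685, 0.555 and 0.447 of Ngp in the Brd9 KO libraries, against 0.447, 0.506 and 0.416 in the controls. Mmp8 was at 0.0334, 0.0288 and 0.0147 of Ngp in the Brd9 KO libraries, against 0.0208, 0.0284 and 0.0317 in the controls. The Ltf ratios lay closest together, Lcn2 was above every control in KO replicates 1 and 2, and Mmp8 was above every control in KO replicate 1 and below every control in replicate 3. S100a8 was at 17.7, 18.2 and 8.66 times Ngp in the Brd9 KO libraries, against 7.68, 9.46 and 6.69 times in the controls, and overlapped through replicate 3.
S100a9 was at 11.8, 12.6 and 8.36 times Ngp in the Brd9 KO libraries, against 5.89, 6.43 and 5.47 times in the controls. Chil3 was at 0.458, 0.527 and 0.449 of Ngp in the Brd9 KO libraries, against 0.189, 0.377 and 0.246 in the controls. Relative to Ngp both stood above every control library in all KO libraries, which their CPM did not, but relative to Ltf the groups overlapped for Chil3. Wfdc21 was at 0.0865, 0.0926 and 0.0267 of Ngp in the Brd9 KO libraries, against 0.287, 0.508 and 0.287 in the controls. Padi4 was at 0.124, 0.128 and 0.0193 of Ngp in the Brd9 KO libraries, against 0.0136, 0.0320 and 0.0221 in the controls. For all of these genes except Camp and Ltf, the ratio to Ngp was lowest in replicate 3 among the KO libraries. Their levels moved less there than that of Ngp.

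**Figure D3:**
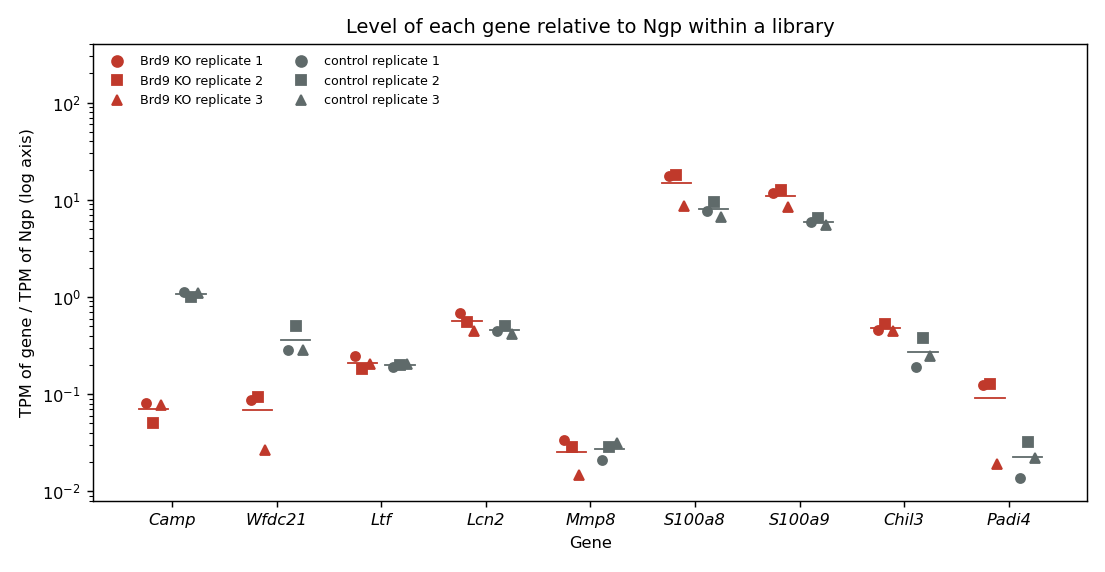
TPM of each gene divided by the TPM of Ngp in the same library (log axis), for 3 Brd9 KO libraries (red, left) and 3 control libraries (grey), with lines at group means. Camp averages 0.0701 in Brd9 KO and 1.07 in control with little spread in either group, whereas the Ltf points of both groups lie between 0.182 and 0.246.

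The 10 genes were also described without Brd9 KO replicate 3. From KO replicates 1 and 2 against the 3 controls, 7 of the 10 were called lower, beside 15.3% of the 13124 genes then tested, and 1 higher, beside 16.3%. The log2 fold changes were -5.69 ± 0.41 for Camp, -3.53 ± 0.21 for Wfdc21, -1.61 ± 0.26 for Ngp, -1.51 ± 0.25 for Ltf, -1.36 ± 0.21 for Mmp8, -1.16 ± 0.23 for Lcn2 and -0.63 ± 0.14 for Chil3. S100a8 (-0.43 ± 0.23) and S100a9 (-0.57 ± 0.25) were called in neither direction, and Padi4 remained higher at 1.01 ± 0.13. As the level of replicate 3 was part of how the 10 were chosen, these values too are a description and no test of the 10. Camp lost its call when any other library was left out, at log2 fold changes between -3.81 and -3.05, and then 2 of the 10 were called, while Wfdc21 and Padi4 kept theirs in all 6 such fits.

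Replicate 3 of the Brd9 KO group differed in other measured ways. The 10 genes took 0.130%, 0.155% and 0.819% of all counts in Brd9 KO replicates 1, 2 and 3, against 0.302%, 0.183% and 0.220% in control replicates 1, 2 and 3. Markers of mature neutrophils, of which 7 of 8 were matched, summed to 245, 245 and 463 CPM in Brd9 KO and 249 to 296 CPM in control libraries, with 1 called higher and 1 lower (1 and 2 without replicate 3). Stfa2l1, a stefin of mature neutrophils, was at 0, 0.0364 and 0.145 CPM in the Brd9 KO libraries, against 0.719, 0.422 and 1.14 CPM in the controls, and was the only one of these markers at 0 in any library. Retnlg and Mmp9 were the 2 markers that followed the KO spread.
The summed level of the 10 monocyte markers was 1201, 1237 and 2148 CPM in Brd9 KO and 2469 to 3100 CPM in control libraries, with 0 called higher and 3 lower, or 6 lower without Brd9 KO replicate 3. Eosinophil markers (8 tested, 7 called higher and 1 lower) summed to 4174, 4094 and 7957 CPM in Brd9 KO and 1842 to 2407 CPM in control libraries. In both lists replicate 3 had the highest sum of the KO libraries.
Lineage antigens of the depletion cocktail (8 tested, 2 higher and 0 lower, or 2 and 2 without replicate 3) summed to 897, 929 and 1600 CPM in Brd9 KO and 1294 to 1641 CPM in control libraries. Markers of T, B and erythroid cells (8 tested, 0 called by edgeR, or 4 lower without replicate 3) summed to 671, 702 and 1454 CPM in Brd9 KO and 813 to 1179 CPM in control libraries. Stem and progenitor markers (10 tested, 1 higher and 1 lower, or 4 and 1 without replicate 3) summed to 1711, 1646 and 1382 CPM in Brd9 KO and 1330 to 1433 CPM in control libraries. Replicate 3 thus had the highest summed level of both lineage lists and the lowest of the progenitor list among the KO libraries. Single genes carried the lineage sums, with Ly6c2, also a monocyte marker, at 1125 CPM and Hba-a1, an alpha globin, at 1177 CPM in replicate 3, and the part of cell composition in the levels of the 10 genes was not tested.

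Among other genes of secondary and tertiary granules and late neutrophils, 36 of 40 listed were tested, of which 6 were called higher and 2 lower, with a median log2 fold change of 0.21 beside 0.02 for all genes. Adam8, a membrane metalloprotease, was at 28.1, 32.0 and 60.8 CPM in the Brd9 KO libraries, against 7.27, 6.37 and 9.50 CPM in the controls (log2 2.38 ± 0.31, edgeR adjusted p = 0.00652). Itgam and Itgb2, the subunits of the Mac-1 integrin, rose by 1.19 ± 0.22 and 0.97 ± 0.15 on the log2 scale (adjusted p = 0.0191 and 0.0108). In these 3 genes, as in Padi4, every KO library lay above every control library.
The genes of this list that fell were Stfa2l1 and Hp, which codes for haptoglobin and was at 149, 155 and 294 CPM in the Brd9 KO libraries, against 364, 427 and 335 CPM in the controls (log2 -0.91 ± 0.26, adjusted p = 0.0731). Of the 36 genes, 13 followed the KO spread by the rule above, among them the secondary and tertiary granule genes Cd177, Mmp9, Itgb2l and Orm1, named after their values were seen. Cd177 was at 16.6, 20.2 and 111 CPM in the Brd9 KO libraries, against 44.2, 31.9 and 39.6 CPM in the controls, the pattern of Ngp and Ltf. Without Brd9 KO replicate 3, 8 genes of this list were called higher and 12 lower. Retnlg, Mmp9 and Stfa2l1 are in both this list and that of mature neutrophil markers.

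Of 11 primary granule genes tested, 0 were called higher and 4 lower, with a median log2 fold change of -0.37, and 1, Lyz2, followed the KO spread. Without Brd9 KO replicate 3, 7 of the 11 were called lower. Mpo, the myeloperoxidase, was at 5073, 5378 and 5292 CPM in the Brd9 KO libraries, against 10871, 10569 and 9507 CPM in the controls (log2 -0.98 ± 0.12, edgeR adjusted p = 0.00574). Prss57, Cst7 and Elane, which code for a serine protease, cystatin F and neutrophil elastase, fell by 1.28 ± 0.14, 0.73 ± 0.12 and 0.76 ± 0.19 on the log2 scale (adjusted p = 0.00369, 0.0133 and 0.0520). Lyz2, lysozyme, was at 384, 449 and 1222 CPM in the Brd9 KO libraries, against 449, 471 and 720 CPM in the controls.

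**Figure D4:**
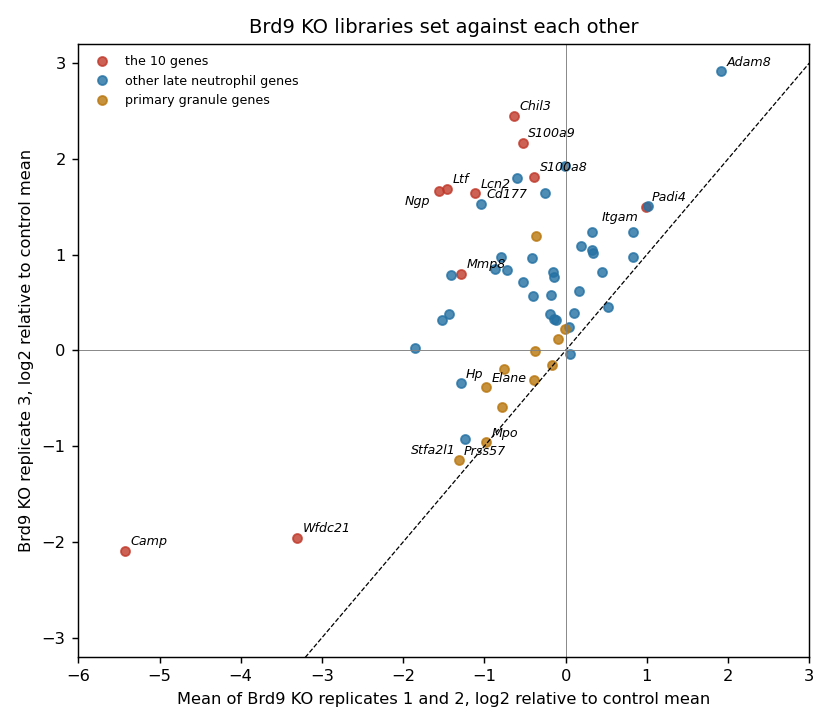
Each point is a gene, placed by the mean of Brd9 KO replicates 1 and 2 (horizontal) and by Brd9 KO replicate 3 (vertical), both as log2(CPM + 0.5) relative to the mean of the control libraries; red, the 10 genes, blue, 36 other late neutrophil genes, orange, 11 primary granule genes. The dashed line marks equal values, and Camp, Wfdc21 and most late neutrophil genes lie above it while Mpo and Prss57 lie close to it.

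Of 10 regulators of granulocyte differentiation tested, 3 were called higher and 1 lower, or 3 and 3 without Brd9 KO replicate 3, and 0 followed the KO spread. Cebpe, which codes for C/EBPε, was at 69.3, 73.4 and 133 CPM in the Brd9 KO libraries, against 71.3, 60.9 and 56.1 CPM in the controls, and did not pass the test (log2 0.55 ± 0.25, edgeR adjusted p = 0.197). Its highest library was Brd9 KO replicate 3. Klf5, Runx1 and Cebpa, transcription factors of the myeloid lineage, rose by 1.93 ± 0.31, 0.55 ± 0.13 and 0.38 ± 0.09 on the log2 scale (adjusted p = 0.0122, 0.0404 and 0.0447). Gfi1, a repressor needed for neutrophil differentiation, fell by 0.53 ± 0.13 (adjusted p = 0.0464).

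Among the 10 genes, likeness across the 6 libraries was described by Pearson's r of log2(CPM + 0.5), given with no test because all values share the same libraries and depths. Over the 36 pairs without Padi4 r ran between 0.10 and 0.995 with a median of 0.886, and over the 9 pairs with Padi4 between -0.82 and 0.46. S100a8 with S100a9 (0.995) and Ltf with Ngp (0.993) were closest. Camp was closest to Wfdc21 (0.971) and reached 0.765 with Mmp8 and 0.645 with Ngp. Over all 6 libraries r takes in the gap between the groups as well as the KO spread. By r alone Camp thus went with Wfdc21 and Padi4 stood apart, without sharp borders, since Mmp8 with S100a8 was at 0.766. In the step up to replicate 3 Camp was instead nearer to Ngp (11.3-fold and 9.33-fold) than to Wfdc21 (2.82-fold).
Of 9241 genes with a mean of at least 10 CPM, those most like the mean profile of the 10 included Cd177 (r = 0.995), Zbtb48 (0.991), Rhog (0.991) and Ifngr2 (0.989). Likeness by r takes no account of size, and Zbtb48 ran only between 12.6 and 16.8 CPM over the 6 libraries. Most like Camp were Slfn4 (0.997), Tmem238 (0.996), Jund (0.995), Slc30a9 (0.995) and Rabggtb (0.994), of which all but Slc30a9 were called lower. Most like Padi4 were Cc2d1a (0.998), Rnf144b (0.998), Prkcb (0.996), Slc16a3 (0.993) and Sipa1 (0.992), all called higher. As Camp and Padi4 themselves separate the groups, genes picked by likeness to them do so too, and these calls are no separate result. Slfn4, a Schlafen family gene, was at 4.50, 4.69 and 9.36 CPM in the Brd9 KO libraries, against 15.9, 12.3 and 13.9 CPM in the controls, and so fell less than Camp.

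Camp, Ngp and Ltf lie within 1195.4 kb of chromosome 9, with Ngp 570.1 kb from Camp and 596.3 kb from Ltf. Between them 17 other genes were tested, of which 4 were called higher, 1 lower and 0 followed the KO spread, with a median log2 fold change of 0.25 over these 17. The lower gene was Prss50, a serine protease gene, at 9.53, 9.09 and 12.2 CPM in the Brd9 KO libraries, against 25.7, 20.7 and 25.8 CPM in the controls (log2 -1.23 ± 0.16, edgeR adjusted p = 0.00670). By the rule above 0.950% of all genes followed the KO spread, so 0 of the 17 is near that share. As Camp, Ngp and Ltf were chosen on the spread, nothing is read from the difference between them and the 17. Some of the 17 were still highest in replicate 3 without meeting the rule. Nradd was at 5.85, 5.75 and 9.93 CPM and Ccdc12 at 99.4, 83.4 and 136 CPM in Brd9 KO replicates 1, 2 and 3.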

How the data were processed

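Per the labels, poly(A) RNA was sequenced on the Illumina platform from 6 libraries, and the build named is mm10. Strandedness is given differently by the labels and by the study's methods. By the study's methods reads were aligned with STAR and quantified with RSEM. The authors deposited RSEM gene tables with expected counts (estimated counts) and TPM values per library, and the expected counts were rounded to whole numbers here. Genes were filtered with filterByExpr, leaving 12953 of 24411, and scaled with TMM factors between 0.927 and 1.08. Fold changes, SE and Benjamini-Hochberg adjusted p-values over all genes tested came from the quasi-likelihood test of edgeR 4.0.16 in R 4.3.3, called at an adjusted p under 0.1, the threshold in the study's methods. The SE printed is |log2 fold change|/√F. The deposited TPM values were used for ratios between genes, and counts behind a value set its precision by counting error only.

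The 10 genes and all lists were chosen with earlier results of these data known. Genes named were the 10, Brd9, up to 4 called genes with the smallest p in each list (or the 2 most abundant where none was called) and the 5 genes most like each profile, and not all of these were printed. Orm1, Itgb2l, Cd177, Mmp9, Retnlg, Lyz2, Cebpe, Kit, Chil4, Fpr2, Ly6c2, Hba-a1, Hp, Stfa2l1, S100a4, S100a6, Chil1, Prss50, Nradd, Ccdc12, Padi1 and Padi3 were named after their values were seen. The listed genes Ly6g, Chil5 and Meltf were not analysed here. Alternatives were size factors by RLE, library totals, no filter, DESeq2 1.42.0, voom and log2(TPM + pseudocount) fits with limma 3.58.1, a replicate block and leaving out each library. Positions are those of the GENCODE mouse annotation on mm10, promoters those of RefSeq on GRCm38.p6.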

Additional observations from a re-analysis of the deposited data

How the results depend on the processing

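The counts over all genes depended most on single libraries. Leaving out each library in turn gave between 641 and 4150 genes called, 462 to 2141 higher and 179 to 2009 lower, beside 1999, 1190 and 809 with all libraries, and the top of each range was reached without Brd9 KO replicate 3. Genes called lower numbered 489 with scaling to the library total (1402 higher), 1260 with DESeq2, 224 with log2(TPM + 1) and 215 with log2(TPM + 0.1). Of the 10 genes, 2 to 8 were called when a library was left out, 1 to 7 of them lower, and 3 under every other alternative. Other late neutrophil genes called then numbered 4 to 20, with 3 to 8 higher and 0 to 12 lower, and 10 were called higher on each TPM scale. With the replicate block, 2077 genes were called in all and 3 of the 10. The correlations of same-numbered deviations were -0.10, 0.57 and 0.01. Without a reference value these do not settle whether the numbers pair the libraries. Of 140 fold changes of the 10 genes under 14 alternatives, 18 had the opposite sign, all of genes not called with all libraries, and 4 of these (Ltf, Ngp, Lcn2 and Chil3 without Brd9 KO replicate 3) were called lower. The small positive fold changes of Ltf and Ngp were also negative, and not called, with voom, on both TPM scales and with the replicate block. The fold change of Brd9 ran between -1.75 and -1.42 when a library was left out. The cause of these shifts was not tested.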

Other observations

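Paralogs of the 10 genes were measured beside them, and 19 of 34 found in the files were tested, with 3 called higher, 1 lower and 7 following the spread between Brd9 KO libraries. Of these 7, Mmp9 and Orm1 were already among the late neutrophil genes that followed the spread. Without Brd9 KO replicate 3, 9 of the 19 were called lower. Padi2, a deiminase in the cluster that holds Padi4, was at 176, 161 and 193 CPM in the Brd9 KO libraries, against 68.2, 68.5 and 87.7 CPM in the controls (log2 1.24 ± 0.14, edgeR adjusted p = 0.00345). Like Padi4, it was higher in all 3 KO libraries without following their spread, while Padi1 in the same cluster did not pass the test (log2 1.11 ± 0.39, adjusted p = 0.121) at under 1 CPM in every library. Padi3, also in the cluster, had a negative fold change and did not pass the test (log2 -0.45 ± 0.35, edgeR adjusted p = 0.440). It reached at most 1.02 CPM, in control replicate 1. Mmp13, a collagenase like Mmp8, rose by 3.11 ± 0.40 on the log2 scale (edgeR adjusted p = 0.00578). Its control level was near the floor, with 9, 14 and 8 counts in control replicates 1, 2 and 3, against 55, 102 and 96 counts in the Brd9 KO libraries. Mmp14, a membrane-bound metalloprotease, fell by 1.64 ± 0.13 (edgeR adjusted p = 0.0012). Trf, transferrin, a homolog of lactoferrin, rose by 0.39 ± 0.11 (adjusted p = 0.0720).

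S100a4 and S100a6, calcium-binding neighbors of S100a8 on chromosome 3, followed the KO spread. S100a6 was at 23.7, 22.7 and 83.0 CPM in the Brd9 KO libraries, against 80.5, 44.5 and 78.5 CPM in the controls. Chil1, a chitinase-like paralog of Chil3, was at 2.21, 2.22 and 13.7 CPM in the Brd9 KO libraries, against 9.61, 5.23 and 6.96 CPM in the controls.

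Receptors and binding partners of the proteins made by the 10 genes were also listed. Of 9 tested, 0 were called higher and 1 lower, or 3 lower without Brd9 KO replicate 3, with a median log2 fold change of -0.06 beside 0.02 for all genes. Fpr2, a formyl peptide receptor, followed the KO spread, at 1.76, 1.16 and 6.37 CPM in the Brd9 KO libraries, against 6.62, 2.70 and 5.89 CPM in the controls. It was also in the list of other late neutrophil genes. Cd36, a scavenger receptor that can bind S100A8 and S100A9, was at 1.64, 2.84 and 3.04 CPM in the Brd9 KO libraries, against 4.31, 4.01 and 5.30 CPM in the controls (log2 -0.86 ± 0.28, edgeR adjusted p = 0.0971).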
